A study of Mus musculus with 6 samples.

Results

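The scavenger receptor genes followed here in bone marrow-derived macrophages (BMDMs) were Msr1, Marco, Cd36, Scarb1, Scarb2, Olr1, Mrc1, Stab1, Cd163 and Cd5l. These 10 of the 30184 genes with a named probe set were taken by gene symbol, and each had 1 probe set whose annotation gave that symbol alone. The cells came from adult C57BL/6J mice and were grown in 20 ng ml-1 of macrophage colony-stimulating factor. They were then given rGAS6, the recombinant form of a protein that binds the efferocytosis receptor MerTK. Per the labels they were taken 24 h after hypoxia/reoxygenation (HR), an in vitro model of ischemia and reperfusion. The study's methods for HR give times of hypoxia and of reoxygenation only. The ATF3-CKO_rGAS6 group (3 arrays) carried floxed Atf3 alleles and a Cre driven from Lyz2, which is active across myeloid cells. The WT_rGAS6 group (3 arrays) came from littermates without Cre, which per the study also carried the floxed Atf3 alleles. Both groups had the same culture, rGAS6 and HR, so no array shows the receptors without rGAS6 or without HR, and the Cre itself and the loss of ATF3 cannot be told apart. Male mice were used per the study's methods. The arrays are labelled as biological replicates, which the study counts as mice.

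Scavenger receptors are a structurally mixed set of surface and secreted proteins that bind polyanionic ligands such as oxidized low-density lipoprotein, bacterial surfaces and apoptotic cells, and hand the cargo to lysosomes. The SR-A proteins Msr1 and Marco carry a collagen-like stalk and a scavenger receptor cysteine-rich (SRCR) domain, the CD36 family proteins span the membrane at both ends of the chain, and Olr1 and Mrc1 bind through C-type lectin-like domains. Several of them are used as markers of resident or alternatively activated macrophages. Expression is given as log2 intensity after the robust multichip average (RMA), so a difference of 1 is a 2-fold change, and a gene was called when its adjusted p from limma, over all 65956 probe sets, was under 0.05.

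The targeted gene went against the labels. Atf3 gave 9.20, 9.26 and 9.25 on the arrays labelled ATF3-CKO, against 8.56, 8.46 and 8.38 on the WT arrays, 1.70-fold higher where it should be deleted (adjusted p = 0.00538). Its call held without each array in turn (0.0152 to 0.0414). The study reports, by RT-qPCR and immunofluorescence, that Atf3 was deleted in macrophages of this mouse line. That check was not made on these arrays. No source used here says which part of the gene its single probe set covers or which part was deleted, so every direction below rests on the labels. Lyz2, whose promoter drives the Cre, read 19.42 ± 0.08, against 18.92 ± 0.21 in WT (SD, n = 3 each, adjusted p = 0.0817, and 0.0391 without WT replicate 2). Macrophage markers were high, with Csf1r at 14.23 ± 0.08 and Adgre1 (F4/80) at 12.84 ± 0.15 on the arrays labelled ATF3-CKO, against 14.33 ± 0.44 and 13.61 ± 0.69 on the WT arrays (SD, n = 3 each). Of 14 macrophage markers 3 were higher (Cd14, C1qa and Mertk) and 1 lower (Itgam, 12.3-fold). Of 12 neutrophil markers 6 were lower and none higher (adjusted p, limma), and their mean log2 level was 6.89 to 7.86 on the arrays labelled ATF3-CKO, against 9.09 to 9.36 on the WT arrays. Of these 12 differences 9 were negative and 3 positive. Among the positive were Csf3r (0.76) and Mmp8 (0.61), neither of them called (limma adjusted p = 0.102 and 0.125). The neutrophil genes Mpo and Elane were dim throughout, with means from 3.45 to 3.83. Of 10 osteoclast markers 4 were lower, with mean levels of 6.93 to 6.95, against 7.99 to 8.21 in WT. The 7 monocyte, 8 dendritic cell and 10 endothelial markers had 2, 1 and 2 lower genes, among them Ly6c2, Itgax and Vwf, and 1 endothelial gene, Kdr, was higher. Of 5 B cell genes 1 was lower, of 7 T and NK cell genes 1 was higher, and of 8 fibroblast genes none was called, with mean levels of 5.75 to 6.74 on the arrays labelled ATF3-CKO, against 5.58 to 5.97 in WT. Most macrophage markers read higher on WT replicate 2 than on the other WT arrays, so values without that array are given beside the results it moves. WT replicate 3 had the lowest mean level of these markers among the WT arrays (12.28, against 12.65 and 13.06 on replicates 1 and 2). The array weights from limma were 2.99, 0.698 and 0.553 for WT replicates 1, 2 and 3. For replicates 1, 2 and 3 of the arrays labelled ATF3-CKO they were 0.874, 0.569 and 1.74. Fits without WT replicate 2 are therefore not taken as the cleaner result. On the WT side, fits with array weights lean most on WT replicate 1. The part of these cell markers in the receptor values was not tested, and in RNA from a whole culture fewer cells of a type and less RNA per cell cannot be told apart.

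Of the 10 genes, 1 was called higher (Scarb2) and 1 lower (Olr1) on the arrays labelled ATF3-CKO, and 8 had no call. Over all probe sets 2.85% were called, 1.17% higher and 1.68% lower, so that 41.1% of the calls were higher, against 25.6% after median-centring of the arrays. The median difference of the 10 genes was -0.04, against 0.06 over all probe sets, with 5 positive and 5 negative differences. The groups did not overlap for 6 of the 10 genes, against 24.0% of all probe sets. These were Scarb2, Cd5l and Marco toward higher values and Olr1, Mrc1 and Cd36 toward lower values. At an unadjusted p under 0.05, 2 genes were higher and 3 lower, against 17.8% of all probe sets in either direction. All 10 genes averaged above 4.32, the median level of all probe sets. The shares over all probe sets also cover the dimmer ones, so they are not a background of like signal level.

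**Figure D1:**
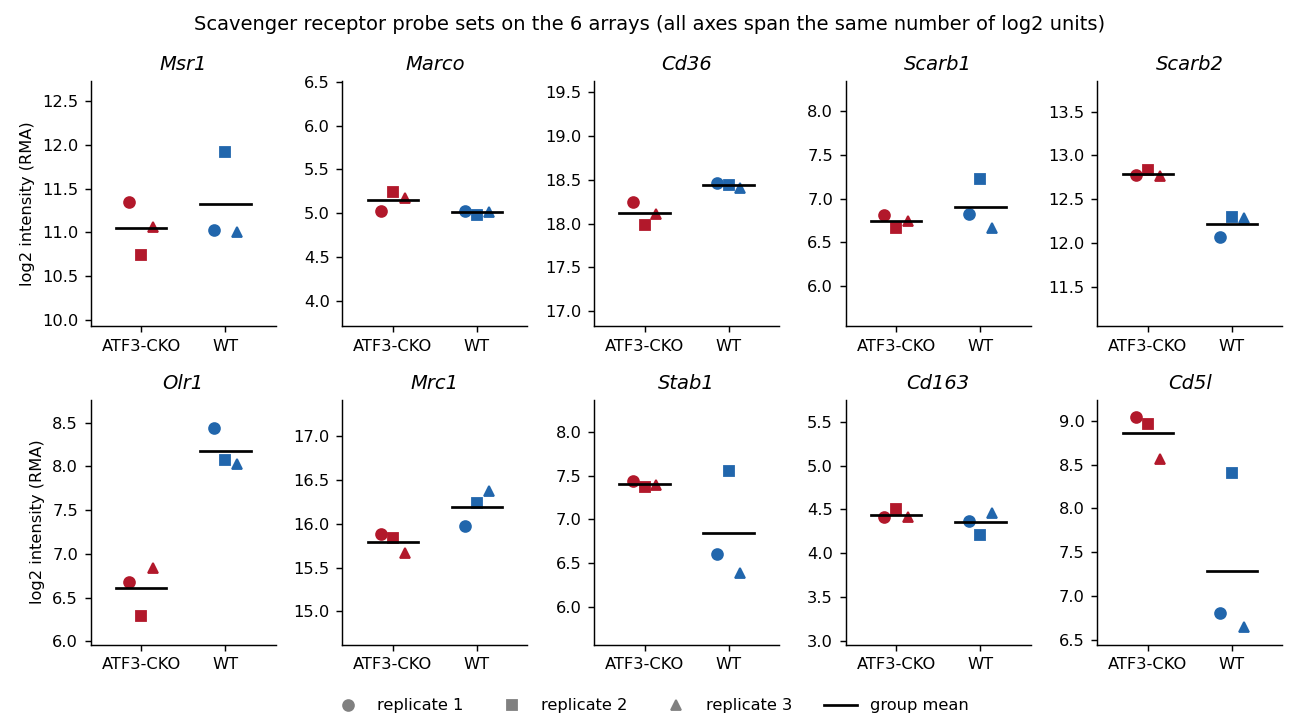
Log2 intensity (vertical axes, each spanning the same number of log2 units) of the 10 scavenger receptor probe sets on the 3 arrays labelled ATF3-CKO (red, left) and the 3 WT arrays (blue, right), with the marker shape giving the replicate and the black line the group mean. Olr1 lies apart by 1.18 and Scarb2 by 0.46, while WT replicate 2 (blue square) sits above the other WT arrays for Msr1, Scarb1, Stab1 and Cd5l.

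**Figure D2:**
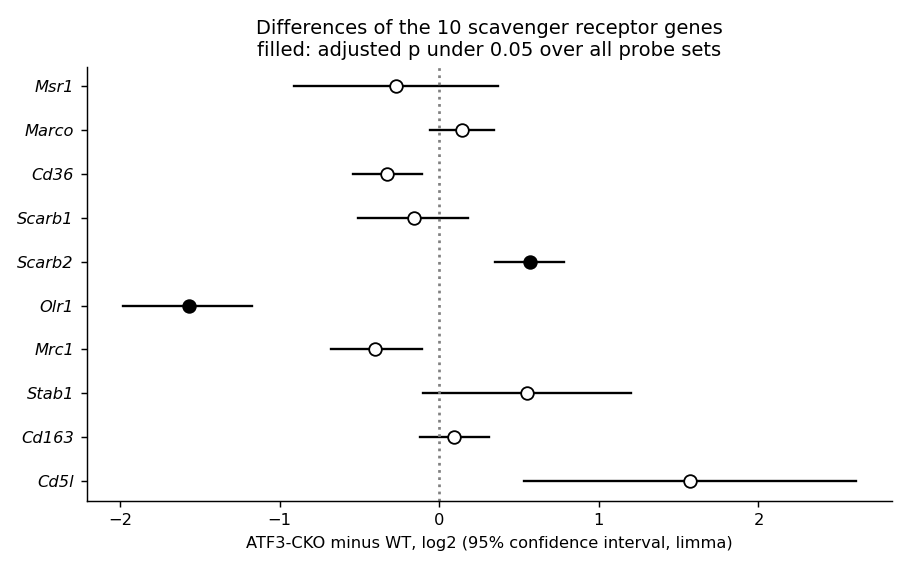
Difference between the arrays labelled ATF3-CKO and the WT arrays in log2 units (horizontal axis) for each gene, with the 95% confidence interval from limma as a line and called genes as filled circles. The interval lies wholly below 0 for Cd36, Olr1 and Mrc1 and wholly above 0 for Scarb2 and Cd5l, of which Olr1 and Scarb2 passed the adjusted threshold.

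Of the lectin-type receptors, Olr1 was lower on the arrays labelled ATF3-CKO and Mrc1 had no call. Olr1 encodes LOX-1, a receptor for oxidized low-density lipoprotein. It gave 6.68, 6.29 and 6.84 on the arrays labelled ATF3-CKO, against 8.44, 8.07 and 8.03 on the WT arrays. The highest value on the arrays labelled ATF3-CKO lay 1.18 below the lowest WT value. The difference was -1.57 (SE 0.17, 95% confidence interval -1.98 to -1.17), or 2.98-fold lower, with an adjusted p of 0.00611. Its call held without each array in turn (adjusted p 0.0122 to 0.026) and in every other fit that was run, with differences from -1.69 to -1.42 as arrays were left out.

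Mrc1 encodes CD206, the mannose receptor, which takes up mannosylated glycoproteins and is a common marker of alternatively activated macrophages. It read 15.88, 15.84 and 15.67 on the arrays labelled ATF3-CKO, against 15.97, 16.24 and 16.37 in WT, so that the groups were 0.09 apart. The difference of -0.40 (SE 0.12, interval -0.68 to -0.11) did not pass, with an adjusted p of 0.149. As a fold, the interval ran between 0.622 and 0.927 of the WT level, before any correction for the number of probe sets.

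Of the 3 genes of the CD36 family, the class B receptors, Scarb2 was higher and Cd36 and Scarb1 had no call. Scarb2 encodes LIMP-2, a lysosomal membrane protein that carries glucocerebrosidase to lysosomes and also serves as an entry receptor for some enteroviruses. It gave 12.78, 12.83 and 12.76 on the arrays labelled ATF3-CKO and 12.07, 12.30 and 12.29 on the WT arrays. All values on the arrays labelled ATF3-CKO lay above all WT values, by at least 0.46. The difference was 0.57 (SE 0.09, interval 0.35 to 0.78), 1.48-fold higher with an adjusted p of 0.0252. This call was near the threshold. The call was lost on leaving out WT replicate 1 (adjusted p = 0.0842) or any array labelled ATF3-CKO (0.0719, 0.0929 and 0.105 for replicates 1, 2 and 3). The adjusted p was 0.0677 after quantile normalization and 0.0653 with the trended robust fit, while the difference stayed between 0.47 and 0.64 in all of the fits run.

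Promoter windows from RefSeq (GRCm38.p6, 250 bases before to 50 bases after the annotated start) were found for 8 of the 10 genes, not for Msr1 and Scarb1. They were searched on both strands for the cAMP response element TGACGTCA, which ATF and CREB proteins bind, the AP-1 site TGANTCA, the C/EBP-ATF composite TGATGNAA, the PU.1 site GAGGAAGT and the antioxidant element TGACNNNGC. Olr1 held 1 AP-1 match whose first base lay at position -60 from the start, Scarb2 held 1 antioxidant element match at -99, and Cd5l held 1 composite match at -138. No other match was found in the 8 windows. Of 32851 windows of the same length, 7.81% held the AP-1 match, 12.4% the antioxidant element, 3.97% the composite, 3.2% the PU.1 site and 1.79% the cAMP response element. The windows of the 2 called genes are shown, since they moved in opposite directions, 5′ to 3′ on the strand of the gene with matches in capitals. They lie at chr6:129507116-129507415 (Olr1, minus strand) and chr5:92505608-92505907 (Scarb2, minus strand). The matches are descriptions of letters only, and no binding was measured here.
Olr1: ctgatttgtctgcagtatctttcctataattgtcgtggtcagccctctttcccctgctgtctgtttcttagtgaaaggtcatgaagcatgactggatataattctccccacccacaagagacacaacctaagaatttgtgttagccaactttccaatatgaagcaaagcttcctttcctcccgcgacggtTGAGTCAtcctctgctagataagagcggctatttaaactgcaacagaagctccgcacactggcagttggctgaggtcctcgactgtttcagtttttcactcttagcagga
Scarb2: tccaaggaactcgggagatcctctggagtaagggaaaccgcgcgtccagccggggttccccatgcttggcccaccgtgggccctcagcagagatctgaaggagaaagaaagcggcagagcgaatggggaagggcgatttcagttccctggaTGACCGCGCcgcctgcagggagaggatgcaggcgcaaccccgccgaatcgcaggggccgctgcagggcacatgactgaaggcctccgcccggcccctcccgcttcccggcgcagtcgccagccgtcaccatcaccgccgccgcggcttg
The windows differ in composition, with 46.0% G and C and 7 CpG pairs in Olr1 and 67.3% and 28 in Scarb2, against medians of 52.7% and 7 over all windows.

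Cd36 encodes a receptor for oxidized low-density lipoprotein, long-chain fatty acids and thrombospondin. It was among the most intense signals of the series at 18.25, 17.99 and 18.11 on the arrays labelled ATF3-CKO, against 18.47, 18.44 and 18.41 in WT. The groups were apart by 0.16, the WT values spread by an SD of only 0.03, and the difference was -0.33 (SE 0.09, interval -0.54 to -0.11). The adjusted p of 0.117 missed the threshold, and with array weights it was 0.0403. The highest value of any probe set was 19.93. Scarb1 encodes SR-BI, which takes up cholesteryl esters from high-density lipoprotein. It read 6.81, 6.66 and 6.75 on the arrays labelled ATF3-CKO and 6.83, 7.23 and 6.66 in WT, so the groups overlapped and the difference of -0.16 (interval -0.51 to 0.18) was within the spread between arrays (adjusted p = 0.63). Only WT replicate 2 stood above the rest, and without it the difference was -0.0038 (adjusted p = 0.993).

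Stab1 and Cd5l, both associated with tissue-resident macrophages, had no call with all 6 arrays, and each was called higher without WT replicate 2. Stab1 encodes stabilin-1, an endocytic receptor for acetylated low-density lipoprotein and the matrix protein SPARC. Its values were 7.44, 7.37 and 7.39 on the arrays labelled ATF3-CKO, within 0.1 of each other, against 6.61, 7.55 and 6.39 in WT. WT replicates 1 and 3 lay below the other group and WT replicate 2 above it. The difference was 0.55 (SE 0.28, interval -0.10 to 1.20; adjusted p = 0.365), and without WT replicate 2 it was 0.90 (adjusted p = 0.0107).

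Cd5l encodes AIM, a secreted SRCR protein that supports macrophage survival and lowers fatty acid synthesis in cells that take it up. It gave 9.04, 8.97 and 8.56 on the arrays labelled ATF3-CKO, against 6.81, 8.41 and 6.65 in WT. The groups were apart, but by 0.15 only, with WT replicate 2 reading 1.68 above the mean of the other WT arrays. The difference of 1.57, 2.96-fold higher, had the widest interval of the 10 genes (0.53 to 2.61) and an adjusted p of 0.121. Without WT replicate 2 it was 2.13 (adjusted p = 0.00245), and with array weights 1.71 (adjusted p = 0.0355). Without any other single array it was between 1.25 and 1.72, with no call.

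Cd163 encodes the receptor for hemoglobin-haptoglobin complexes. Its probe set read 4.41, 4.50 and 4.41 on the arrays labelled ATF3-CKO and 4.37, 4.21 and 4.46 in WT, close to the median level of all probe sets (4.32). These values lay within the range of the 23 background control probe sets, whose means reached 5.30 but had a median of 2.77. The difference of 0.09 had an interval of -0.12 to 0.31 (adjusted p = 0.658).

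The SR-A genes had no call. Msr1, which encodes the type A receptor for modified low-density lipoprotein (CD204), read 11.35, 10.74 and 11.06 on the arrays labelled ATF3-CKO, against 11.03, 11.92 and 11.01 in WT. The groups overlapped, and the difference of -0.27 (interval -0.91 to 0.37; adjusted p = 0.672) turned to 0.03 without WT replicate 2. Marco, a receptor for bacteria and particles, was dim, with 5.03, 5.24 and 5.17 on the arrays labelled ATF3-CKO, against 5.02, 4.98 and 5.01 in WT. Its groups were apart by 0.01 only, with a difference of 0.14 (interval -0.06 to 0.34; adjusted p = 0.446), at a level that background control probe sets also reached.

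For 4 of the 8 genes without a call, WT replicate 2 read highest of the WT arrays. It lay above the mean of the other WT arrays by 0.90 for Msr1, 0.48 for Scarb1, 1.05 for Stab1 and 1.68 for Cd5l. An offset upward of 0.5 or more was seen in 30.0% of the 10 genes and in 1.69% of all probe sets. The 10 genes all averaged above the median level, and no share was taken over probe sets of like level. Of 14 macrophage markers, 12 were also highest of the WT arrays on that replicate, against 22.6% of all probe sets, and the mean level of the list was 13.06 there, against 12.65 and 12.28 on WT replicates 1 and 3, and 12.78 to 12.90 on the arrays labelled ATF3-CKO. The complement gene C1qb, for example, read 15.79 on WT replicate 2, against 14.88 and 14.22 on the other WT arrays. In the fit without this array 4 genes were called in place of 2: Scarb2, Stab1 and Cd5l higher and Olr1 lower. Because it read highest of the WT arrays for Stab1 and Cd5l, leaving it out could only raise their differences. The added calls are therefore no separate support. Without WT replicate 3, the lowest WT array for both genes, the differences fell to 0.32 for Stab1 and 1.25 for Cd5l. Olr1 was the single call when WT replicate 1, or any array labelled ATF3-CKO, was the one left out.

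**Figure D3:**
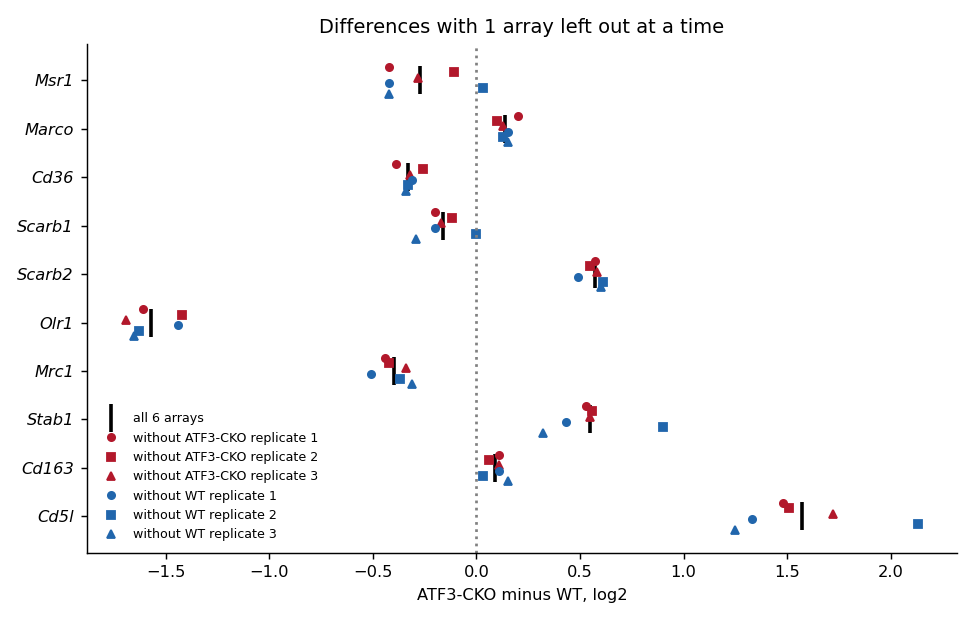
Difference between the arrays labelled ATF3-CKO and the WT arrays in log2 units (horizontal axis) for each gene, with all 6 arrays (black bar) and with each array left out (red for arrays labelled ATF3-CKO, blue for WT, the marker shape giving the replicate). The blue squares, without WT replicate 2, lie furthest right for Stab1 (0.90) and Cd5l (2.13) and on the other side of 0 for Msr1 (0.03).

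The genes beside the called receptors on the chromosome were read after the receptor values were known. Olr1 lies in a cluster of lectin-like receptor genes in the reference annotation. On 1 side Clec7a, Clec1a, Clec9a and Clec1b had no call, with differences of 0.38, -0.02, -0.15 and -0.05. On the other side Tmem52b had a difference of -0.12, and Gabarapl1, whose protein joins autophagosome membranes, gave 10.80, 10.68 and 10.48 on the arrays labelled ATF3-CKO, against 12.26, 11.96 and 12.20 in WT. Gabarapl1 was 2.8-fold lower (difference of -1.49, SE 0.12, adjusted p = 0.00192). The more distant Klre1 and Klrd1 had differences of 0.16 and 0.22 and no call. Of the 8 nearest named genes around Scarb2, none was called, with differences from -0.12 (Nup54) to 0.18 (Cxcl9).

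Of 21 other scavenger receptor genes measured, 1 was higher and 2 were lower, with a median difference of 0.09. Colec12, the collectin placenta 1 receptor that shares the collagen-like stalk of SR-A, gave 8.66, 8.76 and 8.86 on the arrays labelled ATF3-CKO, against 11.77, 11.36 and 11.82 in WT, 7.4-fold lower (adjusted p = 2.5e-04). Cxcl16, a membrane chemokine that also binds oxidized low-density lipoprotein, gave 10.49, 10.04 and 10.23, against 8.90, 9.10 and 8.85 in WT, 2.47-fold higher (adjusted p = 0.00482). Both kept their call without each array in turn. Lrp1, a receptor for apolipoprotein E and protease complexes, was 1.89-fold lower at 13.22 ± 0.18, against 14.15 ± 0.24 in WT (SD, n = 3 each, adjusted p = 0.0246). Its call did not survive the loss of WT replicate 1 (0.0986), nor that of replicates 1 and 3 of the arrays labelled ATF3-CKO (0.0761 and 0.116). Scarf1, which binds acetylated low-density lipoprotein, differed by -0.66 without a call (adjusted p = 0.0621), which passed without WT replicate 3 (0.0191). The macrosialin gene Cd68 (difference 0.03) and the Dectin-1 gene Clec7a (0.38) were intense and not called, and 8 of the 21 genes, Stab2 not among them, averaged above 4.32, the median level.

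**Figure D4:**
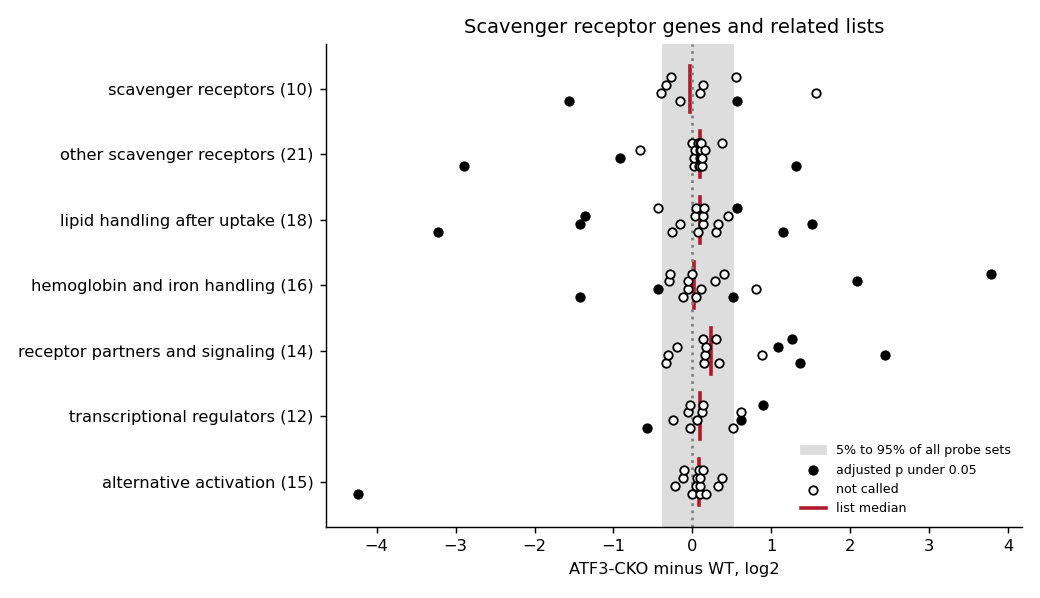
Difference between the arrays labelled ATF3-CKO and the WT arrays in log2 units (horizontal axis) for the scavenger receptor genes and 6 related lists, with the number of genes measured in brackets, called genes filled, list medians in red and the central range of all probe sets (-0.37 to 0.51) in grey. The list medians lie between -0.04 and 0.24, and points outside the grey range lie on both sides, such as Folr2 (-4.24) and Spic (3.78). For receptor partners they lie only above it (lowest difference -0.34), and for alternative activation only below it (highest difference 0.38).

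Genes that handle lipid after uptake changed in both directions. Of 18 measured, 3 were higher and 3 lower, with a median difference of 0.10. Lpl, the lipoprotein lipase that frees fatty acids from lipoproteins, gave 9.94, 9.69 and 9.47 on the arrays labelled ATF3-CKO, against 12.74, 13.63 and 12.39 in WT, 9.33-fold lower (adjusted p = 0.00349). Dgat2, an enzyme of triglyceride synthesis, was 2.67-fold lower (adjusted p = 0.00415), as was Fabp4, a fatty acid carrier, by 2.57-fold (0.00881). Abca1, which exports cholesterol, was 2.85-fold higher (adjusted p = 0.00917), and Cyp27a1, which hydroxylates cholesterol, was 2.22-fold higher (adjusted p = 0.039). Ch25h, another cholesterol hydroxylase, was called higher (adjusted p = 0.0231) at 4.67 ± 0.09, against 4.10 ± 0.09 in WT (SD, n = 3 each), levels that background control probe sets also reached. Ch25h kept its call only when WT replicate 3 was the array left out, and Cyp27a1 only when it was WT replicate 2. Lpl, Dgat2 and Abca1 kept theirs whichever array was left out, and Fabp4 lost its call without ATF3-CKO replicate 3 (0.0556), where the list had 3 calls in place of 6.

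Among 16 genes of hemoglobin and iron handling, the pathway that Cd163 feeds, 3 were higher and 2 lower, with a median difference of 0.02. Spic, a transcription factor of iron-recycling macrophages, was 13.8-fold higher at 10.62 ± 0.40, against 6.84 ± 0.14 in WT (SD, n = 3 each, adjusted p = 3.1e-04). Slc40a1, the iron exporter ferroportin, gave 14.64, 14.06 and 14.41 on the arrays labelled ATF3-CKO, against 11.76, 13.11 and 12.00 in WT, with the WT replicate 2 value again the highest of its group (4.22-fold higher, adjusted p = 0.0283). Hmox1, the heme oxygenase, was 1.43-fold higher at a very intense signal (18.53, against 18.01 in WT; adjusted p = 0.0144). Hp, which encodes haptoglobin, was 2.67-fold lower (adjusted p = 0.00646) and the heme and folate transporter Slc46a1 1.35-fold lower (adjusted p = 0.03). Spic and Hp alone were called when WT replicate 1 or any array labelled ATF3-CKO was left out, and Hmox1 joined them when it was WT replicate 3.

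Of 14 receptor partners and signaling genes, 4 were higher and none lower, with a median difference of 0.24. Tlr2, which signals with Cd36 as a partner, was 5.41-fold higher (adjusted p = 0.00168), and Cd14, Vav1 and Mertk were 2.11-fold, 2.39-fold and 2.57-fold higher (adjusted p = 0.0225, 0.0385 and 0.0499). Vav1 read 12.77, 12.71 and 12.73 on the arrays labelled ATF3-CKO, against 11.31, 12.04 and 11.08 in WT. The calls were fewer without single arrays: Tlr2 alone without ATF3-CKO replicate 1 or 3, and Tlr2 with Cd14 on leaving out ATF3-CKO replicate 2, WT replicate 1 or WT replicate 3. Median-centring of the arrays left Tlr2 alone.

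Of 12 transcription factors tied to scavenger receptor expression, 2 were higher and 1 lower, with a median difference of 0.09. Cebpa was 1.86-fold higher at 11.59 ± 0.18, against 10.69 ± 0.13 in WT, and Maf was 1.54-fold higher at 8.74 ± 0.14, against 8.11 ± 0.17 in WT (SD, n = 3 each, adjusted p = 0.0134 and 0.0423). Irf4, a factor of alternative activation, was called lower at 3.79 ± 0.11, against 4.37 ± 0.13 in WT (SD, n = 3 each, adjusted p = 0.0346), within the range of the background control probe sets, and lost its call whichever array was left out (0.0615 to 0.135). Without WT replicate 2 the calls were Cebpa, Maf, Nfe2l2 and Rxra. Cebpa was the single call when any other array was left out. Pparg, which drives Cd36, differed by -0.25 (interval -0.58 to 0.08; adjusted p = 0.414), and the NRF2 gene Nfe2l2 by 0.62 (adjusted p = 0.0537), which passed without WT replicate 2 (0.0313).

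Of 15 genes of alternative activation and resident macrophages, states that Mrc1 is also used to mark, Folr2 alone was called, at 11.23, 10.72 and 10.76 on the arrays labelled ATF3-CKO, against 15.30, 15.45 and 14.68 in WT, 18.9-fold lower (adjusted p = 3.4e-04). The median difference of the list was 0.08 and 5 of the 15 genes averaged above the median level. Clec10a and Mgl2, which encode galactose-binding lectins, had small positive differences of 0.38 and 0.33 with groups apart and no call (adjusted p = 0.076 and 0.0852). Both had group means that background control probe sets also reached. Egr2 differed by -0.22 (adjusted p = 0.416). Arg1, Lyve1 and Timd4 read at most 4.10 on every array.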

How the data were processed

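RNA was hybridized to 6 mouse Clariom D arrays per the labels (the study's methods name Clariom S for the same cells, and the number of probe sets fits the labels). The authors deposited log2 intensities made with RMA in Affymetrix Expression Console, with global scaling per the methods. The genome build, the annotation release and the version of Expression Console were not given in the sources used here. Of 72688 probe sets, 6732 controls were left out and 65956 tested. Of these 30646 had 1 symbol, 2168 several and 33142 none. Symbols came from the platform annotation. Arrays carry no read depth, and precision is limited by their number.

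Tests, 2-sided, came from lmFit and eBayes of limma 3.58.1 under R 4.3.3, with group as the only term and differences taken as ATF3-CKO minus WT. Benjamini-Hochberg adjustment ran over the 65956 probe sets. An exact permutation test of 3 against 3 cannot go below 0.1 and was not used. The fit was tested on simulated data, in which it called 59% of 100 changes of 1 log2 unit and 88% of 100 changes of 2. Of its 157 calls, 10 were false. A gene without a call is therefore not shown to be unchanged.

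The members, gene lists and the rule for named genes (the 10 members, Atf3, Lyz2, and in each related list the 4 genes of smallest p) were chosen with earlier results of these data known. Other genes named in the text were picked after their values were seen. Lists were described by counts and medians, with no list test. Alternatives were quantile normalization, median-centring, a filter on dim probe sets, probe sets with 1 symbol, the replicate block, leaving out each array, trended robust eBayes, array weights, the mean of a gene's probe sets and a fold of 2. Protein sequences were not used here.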

Additional observations from a re-analysis of the deposited data

How the results depend on the processing

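Of 140 refits of the 10 scavenger receptor genes under the alternatives, 128 kept direction and side of the threshold, 7 lost a call (all Scarb2), 4 gained one and 1 changed sign (Msr1, -0.42 to 0.03 as arrays were left out, positive without WT replicate 2). With the dim filter, 1-symbol probe sets, the replicate block, trended robust eBayes or the mean of probe sets, the difference could not change. Direction was fixed in advance in those refits, so the count of 128 is no measure of robustness. The number of the 10 genes called was 2, and 1 after quantile normalization, 1 with the replicate block (Scarb2 adjusted p = 0.0674), 1 with the trended robust fit and 4 with array weights, and 1 to 4 as single arrays were left out. By the methods' rule of a fold of 2, with no p, the number was also 2, but the genes were Olr1 and Cd5l, with Scarb2 not among them. Over all probe sets 1881 were called, against 5403 with array weights and 543 to 2026 as arrays were left out. The share of calls that were higher was 41.1%, against 25.6% after median-centring and 57.7% with array weights. Hemoglobin and iron genes had 5 calls, against 3 after quantile normalization, 2 with the replicate block, 3 at a fold of 2, and 2 to 4 as arrays were left out. Receptor partners had 4 calls, against 1 after median-centring, 2 with the replicate block and 1 to 4 as arrays were left out. Transcription factors had 3 calls, against 1 with the replicate block, 5 with array weights, 0 at a fold of 2 and 1 to 4 as arrays were left out. Alternative activation had 1 call, against 3 with array weights, 2 with the mean of a gene's probe sets, and 1 as arrays were left out. Lipid handling had 6 calls, 4 with the replicate block (without Ch25h and Cyp27a1), and 3 to 5 as arrays were left out, and other scavenger receptors 3, and 2 to 4. Fits without an array have fewer samples, and the cause of the other changes was not tested.

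The replicate numbers did not pair the arrays: deviations of same-numbered arrays from their group means correlated at 0.032, -0.088 and -0.075 across probe sets. By group mean, Marco, Cd163, Ch25h, Irf4, Clec10a and Mgl2 lay within the range of background control probe sets, which limits their readings. The same holds for the ATF3-CKO means of Slc46a1 (4.92) and Dgat2 (5.26). The control probe sets had a median of 2.77, and their highest mean was 5.30.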
